A study of Mus musculus with 10 samples.

Results

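The genes described here mark the cells of small blood vessels: 27 endothelial genes and 12 genes of mural cells, the pericytes and smooth muscle cells that wrap the vessel wall. They were chosen by name, as 39 mouse gene symbols, and all 39 were found in both expression tables, which hold 57099 distinct gene identifiers between them. The tissue is the mouse trigeminal ganglion, the sensory ganglion of the face. In a surgery experiment, 3 ganglion libraries taken 10 days after an operation that the labels call pIONT were set beside 3 taken 10 days after sham surgery. In an injection experiment, 2 libraries taken 6 hours after the peptide urocortin 1 (UCN1) was injected into the ganglion were set beside 2 taken 6 hours after injection of phosphate-buffered saline (PBS). No transgene or deletion is named for any group, and the strain, age, sex and number of animals per library are not given in the sources used here, so each p-value reflects no more than the variation among these libraries, which may be technical. The title of the study places both experiments in work on trigeminal neuropathic pain.

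Endothelial cells line every vessel, and in nervous tissue they are sealed to each other by tight junctions and carry transporters that decide which nutrients enter and which foreign compounds are pushed back into the blood. Pericytes sit on capillaries and are recruited by platelet-derived growth factor from the endothelium, while smooth muscle cells around arterioles contract through actin and myosin. In sensory ganglia the vessels near neuron cell bodies are known to be more permeable than those of the brain or of the nerve trunk.

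Expression was read as FPKM (fragments mapped to a gene, scaled by its length and by the library's depth), a value that allows levels of different genes to be compared within a table. Depth, recovered from the spacing of low FPKM values, was 24.2 to 29.7 M reads per library in the surgery table and 15.7 to 17.1 M in the injection table. Differences are given as log2(FPKM + 0.5), a scale that compresses changes of genes near 0.5 FPKM, and a gene is said to have risen or fallen where limma's Benjamini-Hochberg adjusted p over all tested genes was under 0.05. The tables were normalised separately, so every test stayed within its own table. The defining endothelial genes Pecam1, Cdh5 and Cldn5 and the defining pericyte genes Pdgfrb and Rgs5 were above 1 FPKM in all 10 libraries. In bulk tissue, fewer vessel cells and less RNA per vessel cell cannot be told apart.

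After pIONT surgery, 2 endothelial genes rose and 6 fell, while none of the 10 mural genes tested passed the test. Ly6a, a surface protein that interferons induce, rose 2.41-fold and Slc2a1, the glucose transporter GLUT1, rose 1.27-fold. The genes that fell were the barrier transporters Mfsd2a, Slco1a4 and Abcb1a, the surface protein Ly6c1, the adhesion molecule Pecam1 and the secreted proteoglycan Esm1, by 0.20 to 0.49 on the log2 scale. Without sham 1, sham 2 or sham 3 the count of 8 was 5, 4 and 5. These 8 genes are 22.2% of the 36 members tested, beside 22.8% of all 14672 tested genes, so the share of vessel genes that passed was that of the transcriptome at large. The split by direction was 2 higher and 6 lower, where 10.5% of all tested genes rose and 12.3% fell. Among the 26 endothelial genes tested the share was 30.8%. At an unadjusted p under 0.05 stood 13 of these 26 and 1 of the 10 mural genes, Myh11, beside 37.0% of all tested genes. Ocln, Abcc9 and Tagln, at a mean under 0.5 FPKM, were not tested. The 3 pIONT libraries were all above the sham libraries for 2 of the 39 genes and all below them for 12, beside 18.7% and 24.7% of all tested genes (43.4% in either direction).

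Most of the 39 genes leaned the same way without passing the test singly. The log2 difference was negative for 33 and positive for 6, with a median of -0.15 beside -0.02 for all tested genes. The share of negative differences over all tested genes was not counted. The median was -0.17 over the 27 endothelial genes and -0.12 over the 12 mural genes. The average log2(FPKM + 0.5) of the endothelial genes was 1.89, 1.91 and 1.83 in the sham libraries and 1.77, 1.74 and 1.79 in the pIONT libraries. The groups did not overlap in this average. The summed FPKM of the endothelial genes went the other way, at 148 to 152 in sham and 165 to 188 after pIONT. A sum is weighted to the highest genes, which include Ly6a and Slc2a1, which rose, and Mfsd2a, which fell. For the mural genes the average log2 value was 1.48, 1.20 and 1.16 in sham and 1.12, 1.16 and 1.09 after pIONT. Sham 1 stood above the other 5 libraries, which lay within 1.09 to 1.20.

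**Figure D1:**
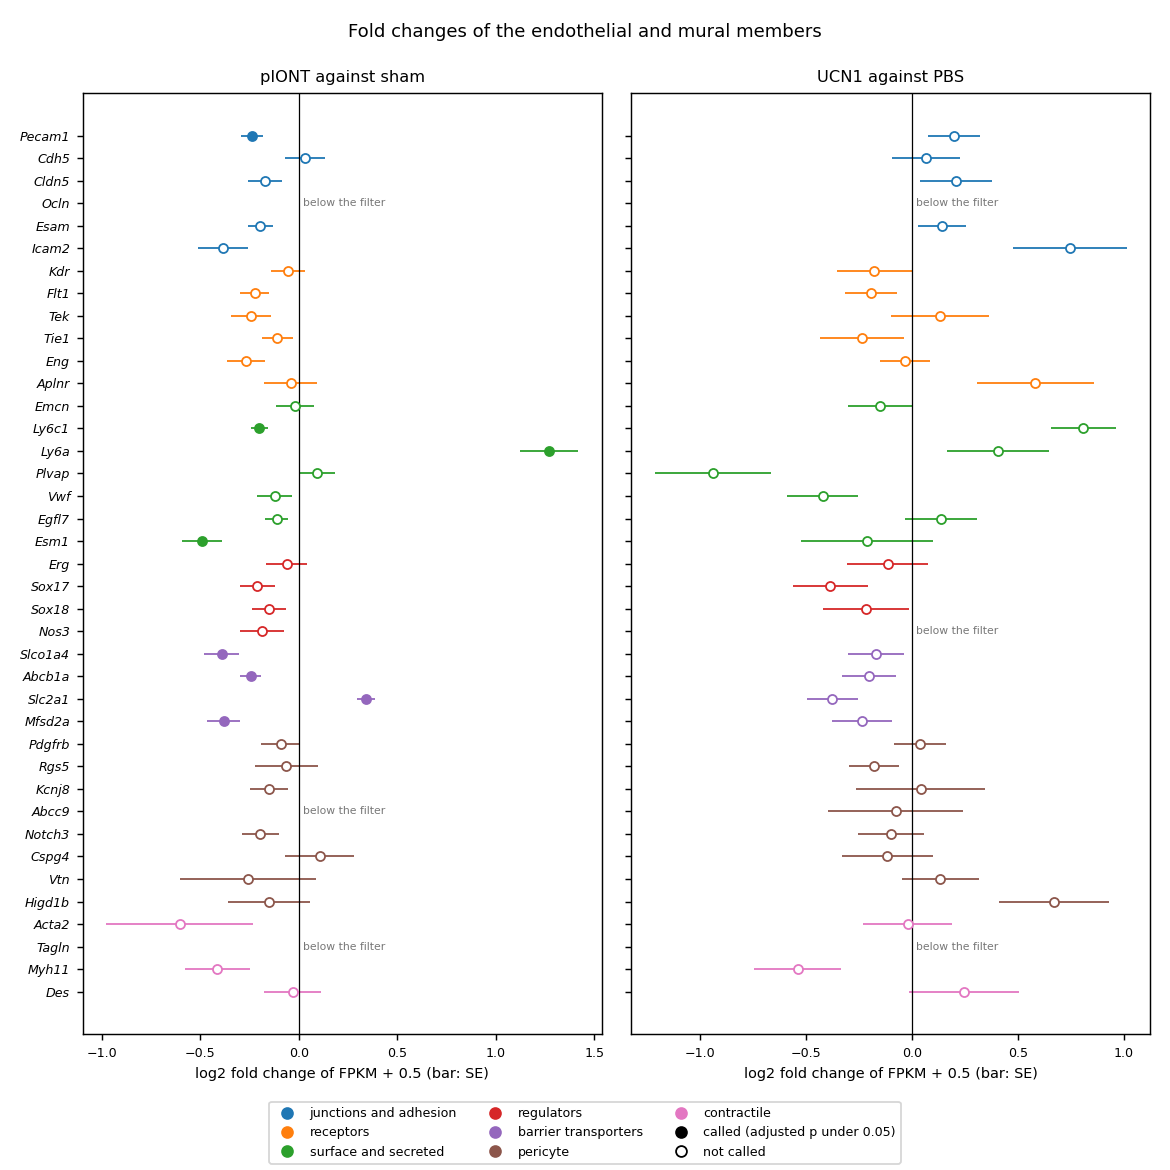
Difference between groups for each endothelial and mural gene in the surgery experiment (pIONT against sham) and the injection experiment (UCN1 against PBS), on the log2(FPKM + 0.5) scale; bars are standard errors from limma and filled points passed the test. Ly6a stands apart at 1.27 after surgery, and no gene passed the test after injection.

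The 4 transporters of the blood-nerve and blood-brain barrier were the only role in which every member passed the test, 1 higher and 3 lower. Over all tested genes the share was 22.8%, and the lists were chosen with earlier results of these data known. Of 14 alternatives of the processing, Slc2a1 passed in 14, Mfsd2a in 13, Abcb1a in 10 and Slco1a4 in 8. The promoters of these 4 genes are shown because all passed the main test, in different directions. Their windows also differ in AGGAAG, a run of letters that the ETS family of endothelial transcription factors is known to bind. Other runs that ETS factors bind were not searched. Each is the 250 bases before the start of the gene, 5′ to 3′ on the gene's strand, from RefSeq on GRCm38.p6, with AGGAAG on either strand (CTTCCT when read on the other strand) in capitals.

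Slco1a4, chr6:141856221-141856470, minus strand: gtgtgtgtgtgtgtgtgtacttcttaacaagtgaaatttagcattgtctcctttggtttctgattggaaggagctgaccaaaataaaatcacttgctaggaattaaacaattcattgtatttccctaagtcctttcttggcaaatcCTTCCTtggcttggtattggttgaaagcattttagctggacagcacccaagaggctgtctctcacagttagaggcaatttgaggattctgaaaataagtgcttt
Abcb1a, chr5:8566841-8567090, plus strand: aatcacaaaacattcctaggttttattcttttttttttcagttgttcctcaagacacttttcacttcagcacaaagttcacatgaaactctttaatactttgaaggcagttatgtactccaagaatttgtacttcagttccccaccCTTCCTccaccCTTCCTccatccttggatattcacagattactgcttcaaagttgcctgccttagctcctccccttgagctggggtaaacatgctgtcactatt
Mfsd2a, chr4:122961189-122961438, minus strand: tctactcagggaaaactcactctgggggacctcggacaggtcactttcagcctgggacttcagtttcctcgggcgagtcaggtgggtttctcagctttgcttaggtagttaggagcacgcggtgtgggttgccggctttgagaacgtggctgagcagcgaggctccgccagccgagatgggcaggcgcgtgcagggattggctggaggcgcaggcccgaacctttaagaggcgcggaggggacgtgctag
Slc2a1, chr4:119108495-119108744, plus strand: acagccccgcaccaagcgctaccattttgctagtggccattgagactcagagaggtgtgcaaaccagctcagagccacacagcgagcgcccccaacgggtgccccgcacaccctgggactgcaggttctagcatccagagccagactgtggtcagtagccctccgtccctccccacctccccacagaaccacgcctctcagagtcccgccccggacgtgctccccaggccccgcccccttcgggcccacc

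The motif AGGAAG occurred in the windows of Slco1a4, 104 bases before the start, and of Abcb1a, 104 and 93 bases before it. It occurred in neither Mfsd2a, which fell, nor Slc2a1, which rose. Of the 39 genes 24 had a promoter in the table, Ly6a and Pdgfrb not among them, and 9 of the 24 held the motif. By window, 33.3% of the 30 windows of these genes held it, beside 29.5% of 32851 windows of all genes. The SOX motif ACAAAG was in 16.7% of the members' windows and 16.5% of all windows. The interferon-gamma motif TTCNNNGAA and the interferon-stimulated response element were in 0 of the members' windows, beside 7.02% and 2.98% of all windows, and the E-box CACGTG in 0 beside 6.02%. All motifs were searched on both strands, and a match is a run of letters, not a bound site.

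Slc2a1 brings glucose across the endothelium and is also used by the perineurial sheath. Its FPKM was 20.9, 19.7 and 20.5 in the sham libraries and 26.9, 26.1 and 24.8 in the pIONT libraries. All pIONT libraries were above all sham libraries, with means of 20.4 ± 0.584 and 25.9 ± 1.04 (SD, n = 3 each), a log2 difference of 0.34 (SE 0.05) and an adjusted p of 0.00405 by limma. The gene lies at chr4:118965908-118995180 on the plus strand, in the coordinates of the deposited surgery table, whose processing notes name GRCm39.

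Mfsd2a carries lipids bound to lysophosphatidylcholine into the endothelium and restrains vesicle transport across it. Its FPKM was 23.5, 24.2 and 25.9 in sham and 20.8, 16.6 and 18.9 after pIONT (chr4:122840643-122854981, minus strand). The groups did not overlap, and the gene fell by 0.38 on the log2 scale (SE 0.08, limma adjusted p = 0.0184), from 24.5 ± 1.20 to 18.8 ± 2.08 (SD, n = 3 each). Without sham 3 the adjusted p was 0.0715. Mfsd2a and Slc2a1 had similar levels in the ganglion and moved in opposite directions.

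Slco1a4, an organic anion transporter, had FPKM of 3.50, 3.84 and 2.97 in sham and 2.44, 2.41 and 2.62 after pIONT (chr6:141751166-141801925, minus strand). It fell by 0.39 on the log2 scale (SE 0.09, limma adjusted p = 0.0234). Abcb1a, the drug efflux pump P-glycoprotein, had FPKM of 5.05, 5.13 and 4.74 in sham and 4.25, 4.14 and 3.97 after pIONT (chr5:8710077-8798575, plus strand). It fell by 0.24 (SE 0.05, limma adjusted p = 0.0206), and 10.1% of its exon bases overlap a gene on the other strand. The groups were apart for both genes. Their near-identical neighbours Slco1a5 and Abcb1b were low, at group means of 0.146 to 0.158 and 0.354 to 0.401 FPKM. The handling of reads shared between such copies is not stated. Slco1a4 did not pass without sham 1 (adjusted p = 0.0701), sham 2 (0.0634), pIONT 1 (0.0657) or pIONT 2 (0.0637), nor with no filter on low genes (0.0517). Abcb1a did not pass without sham 1 (0.0654), sham 2 (0.071) or pIONT 3 (0.0531).

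**Figure D2:**
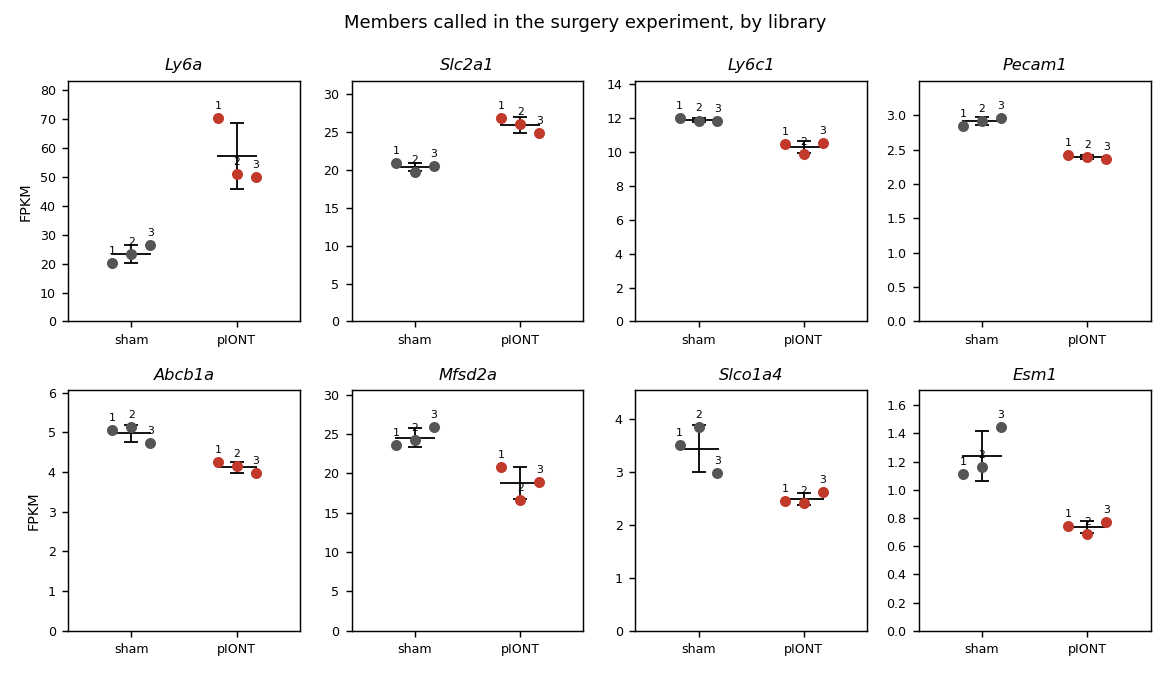
FPKM in each of the 3 sham and 3 pIONT libraries for the 8 genes that passed the test after surgery; points are numbered libraries, and lines and bars are group means and SD. In every panel the groups are apart, upward for Ly6a and Slc2a1 and downward for the other 6 genes.

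Of the 7 surface and secreted endothelial proteins, 1 rose and 2 fell. Ly6a, also called Sca-1, is anchored in the membrane of endothelial cells and is also made by some fibroblasts and blood progenitors. Its FPKM was 20.2, 23.2 and 26.3 in sham and 70.4, 51.1 and 50.002 after pIONT (chr15:74866726-74869880, minus strand). Every pIONT library was above every sham library, and the group means were 23.2 ± 3.04 and 57.2 ± 11.5 (SD, n = 3 each), a log2 difference of 1.27 (SE 0.15, limma adjusted p = 0.00232). Its neighbour in the same gene family, Ly6c1, moved the other way. Ly6c1 had FPKM of 12.03, 11.87 and 11.82 in sham and 10.5, 9.88 and 10.5 after pIONT (chr15:74915867-74920679, minus strand). It fell by 0.20 on the log2 scale (SE 0.04, limma adjusted p = 0.0183), from 11.9 ± 0.111 to 10.3 ± 0.362 (SD, n = 3 each), with no overlap. Without sham 1, 2 or 3 its adjusted p was 0.0615, 0.0572 and 0.0611. Its near-identical copy Ly6c2 was at group means of 0.434 in sham and 0.311 after pIONT.

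Esm1, or endocan, is secreted by sprouting endothelium in response to vascular endothelial growth factor (VEGF). Its FPKM was 1.11, 1.16 and 1.44 in sham and 0.746, 0.687 and 0.773 after pIONT, or about 40 to 73 reads per library (chr13:113346193-113354632, plus strand). The groups did not overlap, and the gene fell by 0.49 on the log2 scale (SE 0.10, limma adjusted p = 0.016; 0.0529 without sham 3). The other 4 did not pass the test: Plvap, of the diaphragms of fenestrated capillaries, differed by 0.09, the clotting carrier Vwf by -0.12, the matrix protein Egfl7 by -0.11 and the sialomucin Emcn by -0.02.

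Markers of other cells moved in the same libraries. Of 12 macrophage markers 8 rose, and their summed FPKM was 167 to 307 in sham and 359 to 867 after pIONT, with no marker at 0. Ly6a and the macrophage sum were both higher in every pIONT library than in every sham library. The highest library was pIONT 1 for Ly6a and pIONT 2 for the macrophage sum. None of 8 fibroblast markers passed limma's test, and their sum was 189 to 243 in sham and 227 to 364 after pIONT. Of 8 markers of myelinating Schwann cells 6 fell, with a summed FPKM of 4551 to 5041 in sham and 3767 to 4039 after pIONT. Of 8 neuron markers 3 rose and 4 fell (sum 5092 to 5569 and 6102 to 6254), and of 6 satellite glia markers 2 rose (2559 to 2738 and 2945 to 3631). The part of these cell types in the changes of the vessel genes was not tested.

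Among 6 junction and adhesion genes, Pecam1 alone passed the test. Pecam1, or CD31, is held at contacts between endothelial cells and had FPKM of 2.85, 2.92 and 2.96 in sham and 2.42, 2.40 and 2.36 after pIONT (chr11:106545043-106641454, minus strand). The groups did not overlap, and the difference was -0.24 on the log2 scale (SE 0.05, limma adjusted p = 0.0223). This call depended on having all 6 libraries: leaving out any 1 of them gave an adjusted p of 0.0504 to 0.0815. Cldn5, the main claudin of endothelial tight junctions, was the highest gene of the role at 16.8, 17.5 and 14.0 in sham and 13.5, 14.1 and 15.1 after pIONT. Its groups overlapped, with a log2 difference of -0.17 (adjusted p = 0.202). Icam2, an endothelial ligand of leukocyte integrins, differed by -0.38 (adjusted p = 0.0699), the adhesion molecule Esam by -0.20 (0.0666) and VE-cadherin, encoded by Cdh5, by 0.03 (0.851). Occludin, encoded by Ocln, was at group means of 0.282 in sham and 0.214 after pIONT.

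None of the 6 vascular receptors passed limma's test. Endoglin, encoded by Eng, a co-receptor for bone morphogenetic proteins, was the highest at FPKM of 5.09, 4.62 and 4.17 in sham and 3.64, 4.24 and 3.40 after pIONT. Its groups overlapped slightly, and its log2 difference was -0.27 (adjusted p = 0.087). The angiopoietin receptor Tek was at 1.59, 1.50 and 1.53 in sham and 1.09, 1.13 and 1.48 after pIONT, a difference of -0.24 (adjusted p = 0.136), and without pIONT 3 it passed at -0.34 (0.036). Flt1, a VEGF receptor that also traps its ligand, differed by -0.22 (0.0683). Its partner Kdr, the main signalling receptor for VEGF, differed by -0.05, the orphan receptor Tie1 by -0.11 and the apelin receptor Aplnr by -0.04.

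None of the 4 regulators passed limma's test either, and all 4 differences were negative. Sox18, a transcription factor of vessel identity, was at FPKM of 1.82, 1.83 and 1.48 in sham and 1.55, 1.44 and 1.48 after pIONT, a log2 difference of -0.15 (adjusted p = 0.258). Its relative Sox17 differed by -0.21 (0.134) and the ETS factor Erg by -0.06 (0.709). Nos3, the endothelial nitric oxide synthase, differed by -0.19 (0.277), and 32.3% of its exon bases overlap genes on the other strand.

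None of the 7 pericyte genes tested passed limma's test, and the log2 difference was negative for 6 of the 8, with a median of -0.12 beside -0.02 for all tested genes. Pdgfrb, the receptor through which endothelium recruits pericytes, was at FPKM of 8.81, 9.09 and 9.25 in sham and 7.58, 10.0 and 7.95 after pIONT, and the groups overlapped. Its difference was -0.09 (limma adjusted p = 0.541), but without pIONT 2, its highest library, it was -0.21 with an adjusted p of 0.0391, the only call of a mural gene in the alternatives run. Rgs5, a brake on G protein signalling, differed by -0.06, the potassium channel subunit Kcnj8 by -0.15, the receptor Notch3 by -0.20, the proteoglycan NG2 (Cspg4) by 0.11 and Higd1b by -0.15. Abcc9, the partner subunit of Kcnj8, was at means of 0.392 in sham and 0.452 after pIONT.

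Sham 1 was the highest of the 6 libraries for each of the 4 contractile genes, and none of the 3 tested passed. Acta2, smooth muscle actin, was at FPKM of 8.31, 2.76 and 3.53 in sham and 2.48, 2.06 and 3.81 after pIONT. The groups overlapped, and the log2 difference of -0.60 (SE 0.37, limma adjusted p = 0.285) was -0.18 without sham 1. Myh11, smooth muscle myosin, was at 1.37, 0.737 and 0.824 in sham and 0.535, 0.582 and 0.653 after pIONT. Its groups did not overlap; the difference of -0.41 (adjusted p = 0.117) was -0.23 without sham 1. The filament gene Des differed by -0.03, and Tagln, an actin-binding protein, was at 0.532, 0.333 and 0.355 in sham and 0.236, 0.397 and 0.442 after pIONT, with 67.9% of its exon bases overlapping other genes. Sham 1 was also the highest library for Vtn, the matrix protein vitronectin, at 12.6 where the other 5 libraries had 4.56 to 7.98, and the Vtn difference of -0.26 was 0.12 without it. In the same library the summed FPKM of the 6 pituitary markers in the surgery table was 765, against 80.7 to 255 in the other sham libraries and 117 to 132 after pIONT. The sum of 8 meningeal markers was 188 in sham 1, against 18.2 to 62.3 in the other sham libraries and 25.8 to 72.4 after pIONT. Most of the sham 1 sum was Ptgds, at 163. Slc47a1, Fmod, Mfap4 and Cpz were not highest in sham 1. Of the oligodendrocyte and astrocyte markers, Mog was at 2.68 in sham 1 and 0.0817 to 0.201 in the other 5 libraries. Mobp was at 4.44 in sham 1 and 0.600 to 0.757 in the others, and Aqp4 at 2.00 and 0.776 to 1.20. Opalin, Slc1a2 and Aldoc were not highest in sham 1. The part of carried-over tissue in the mural and endothelial values was not tested.

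**Figure D3:**
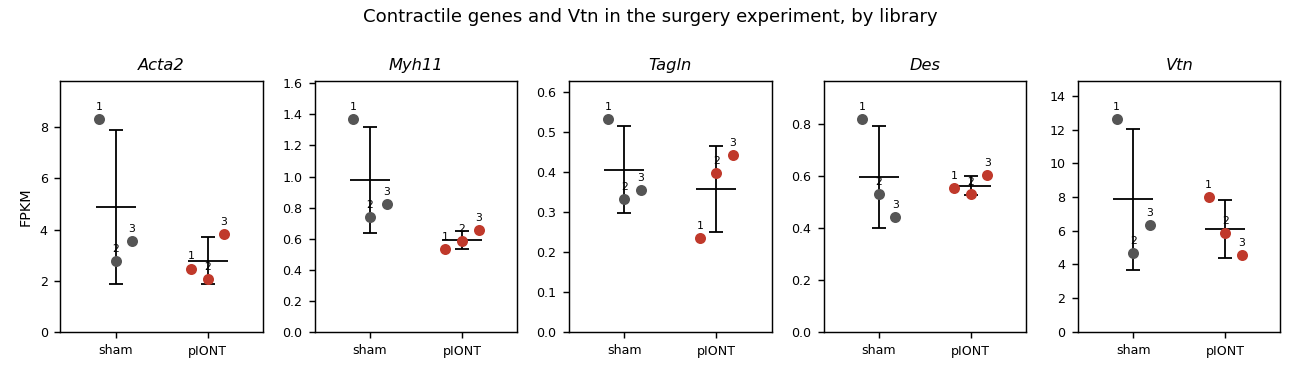
FPKM of the 4 contractile genes and Vtn in each sham and pIONT library; points are numbered libraries, and lines and bars are group means and SD. Sham 1 is the highest library in every panel, for Acta2, at 8.31 FPKM, and for Myh11, at 1.37 FPKM.

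**Figure D4:**
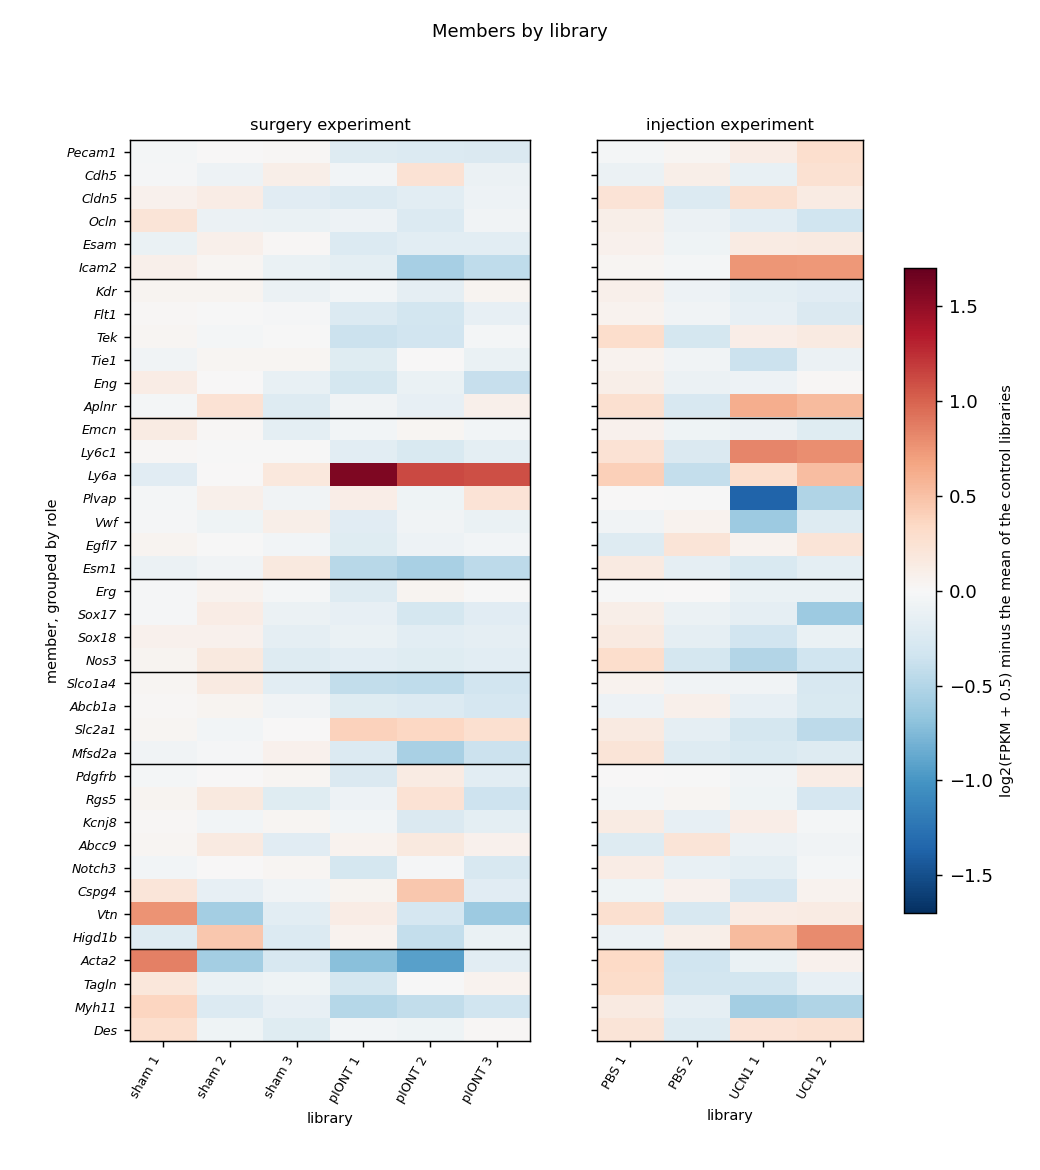
Deviation of each gene, as log2(FPKM + 0.5), from the mean of its control libraries (sham or PBS), in each library of both experiments; red is above and blue below, and lines part the roles. The pIONT columns are mostly below the sham mean for endothelial genes, Ly6a is above it in all 3, and sham 1 is above it for Acta2 and Vtn.

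After UCN1 injection no vessel gene passed the test. Of the 36 genes tested, 0 passed limma's adjusted test, beside 97 of 16139 tested genes (0.601%, of which 0.304% higher and 0.297% lower), while 5 of 25 endothelial and 2 of 11 mural genes had an unadjusted p under 0.05, beside 13.1% of all tested genes. Ocln, Nos3 and Tagln were not tested. The groups of 2 did not overlap for 22 of the 39 genes, 7 higher and 15 lower, beside 45.5% of all tested genes (21.8% higher and 23.7% lower). The median log2 difference was -0.11 over the 39 genes, -0.17 over the endothelial and -0.05 over the mural genes, beside -0.01 for all tested genes. The average log2(FPKM + 0.5) of the endothelial genes was 3.03 and 2.83 after PBS and 2.85 and 2.91 after UCN1, and the groups overlapped. Red blood cell markers, summed, were at 45.6 and 152 FPKM after PBS and at 106 to 112 after UCN1.

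Ly6c1 came nearest to passing. Its FPKM was 40.3 and 28.3 after PBS and 60.5 and 58.5 after UCN1, with both UCN1 libraries above both PBS libraries. The log2 difference was 0.81 (SE 0.15, limma adjusted p = 0.0861). Testing only genes with a mean of at least 2 FPKM gave a limma adjusted p of 0.0254, and Ly6c1 also passed with the replicate number as a block. It did not pass with another pseudocount, no filter, TPM, median-of-ratios scaling or array weights. Over all alternatives its difference ran from 0.56 to 1.06. Ly6a, which rose after surgery, was at 12.8 and 7.11 after PBS and 11.7 and 14.0 after UCN1, overlapping, with a difference of 0.41 (0.512).

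Other genes differed by at least 0.5 on the log2 scale without passing. Plvap had FPKM of 5.58 and 5.55 after PBS and 1.86 and 3.75 after UCN1, a difference of -0.94 (SE 0.27, limma adjusted p = 0.22). Pituitary markers were low in the same libraries: 3 of 5 tested fell, and the sum of all 7 was 122 to 124 FPKM after PBS and 9.14 to 9.61 after UCN1, with Lhb at 0. Of 8 meningeal markers 4 fell, and the sum of all 8 went from 78.7 to 104 FPKM after PBS to 13.1 to 14.6 after UCN1. The meningeal marker Aldh1a2 went the other way, at 0.816 and 1.01 after PBS and 1.71 and 2.35 after UCN1. The part of such tissue in the Plvap difference was not tested.

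Icam2 was at 0.813 and 0.749 after PBS and 1.66 and 1.63 after UCN1, a difference of 0.75 (limma adjusted p = 0.302) that rests on 9 to 20 reads per library. Higd1b was at 0.977 and 1.20 after PBS and 1.80 and 2.27 after UCN1, a difference of 0.67 (0.328) on 9 to 22 reads. Both UCN1 libraries were above both PBS libraries for these 2 genes, and also for Aplnr, at 1.59 and 0.936 after PBS and 2.16 and 2.02 after UCN1 (0.58, 0.415). Myh11 was lower in both UCN1 libraries, at 4.17 and 3.26 after PBS and 2.32 and 2.45 after UCN1 (-0.54, 0.326). Tagln was listed at 0 in PBS 2 and UCN1 1 and stood at 4 reads or fewer in the others.

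The barrier transporters were all lower on average after UCN1, and none passed the test. Slc2a1 was at FPKM of 60.3 and 48.7 after PBS and 43.8 and 39.6 after UCN1, groups apart, with a difference of -0.37 (limma adjusted p = 0.265). This was the opposite sign to surgery. Mfsd2a was at 50.2 and 37.1 after PBS and 36.1 and 37.2 after UCN1, overlapping, with a difference of -0.23 (0.518). Abcb1a differed by -0.20 and Slco1a4 by -0.17. Pecam1 was at 12.9 and 13.6 after PBS and 14.4 and 16.2 after UCN1, a difference of 0.20 (0.522), and Esm1 differed by -0.21 (0.816).

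**Figure D5:**
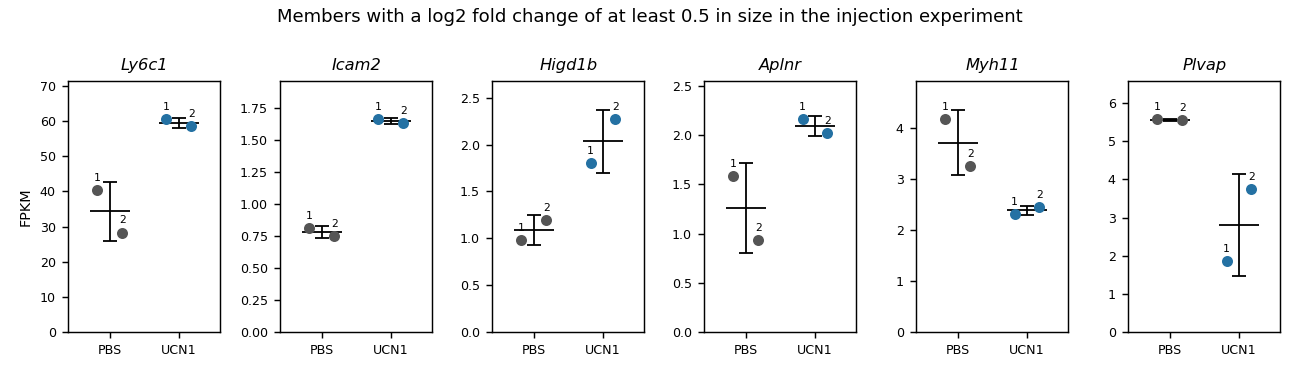
FPKM in each PBS and UCN1 library for the 6 genes that differed by at least 0.5 on the log2 scale; points are numbered libraries, and lines and bars are group means and SD. Ly6c1, Icam2, Higd1b and Aplnr are higher and Myh11 and Plvap lower in both UCN1 libraries, and none passed the test.

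Genes that signal to or from the vessel wall, 81 in 8 lists, were read beside the members. After surgery 64 were tested, of which 8 rose and 9 fell, near the 10.5% and 12.3% of all tested genes that did (22.8% in all), so the counts do not set the lists apart from the transcriptome. Among VEGF, angiopoietin and apelin genes, 1 of 8 tested rose and 3 fell: the ligands Vegfa (-0.45), Pgf (-0.52) and Vegfb (-0.35) fell and the co-receptor Nrp2 (0.40) rose. Among 17 genes of platelet-derived growth factor, transforming growth factor beta and Notch signalling, 3 rose and 4 fell. Those that rose were the ligand Tgfb1 (0.90) and its receptors Tgfbr1 (0.68) and Tgfbr2 (0.36), and those that fell included the ligand Pdgfd (-0.62). Among 10 other junction genes Cgn, encoding cingulin, fell by 0.52. Among 10 genes of the Wnt pathway that maintains the barrier, Tspan12 (0.31) and Ndp (0.19), a ligand of the pathway, rose. Of 8 genes of the vascular basement membrane Lama5, a laminin chain, rose by 1.07 (limma adjusted p = 0.0004). Of 5 other smooth muscle genes Mcam rose by 0.35 and Tpm2 fell by 0.75. Of 3 leukocyte adhesion genes and 3 lymphatic genes tested none passed. Many of these genes are made by other cells of the ganglion too. After UCN1 injection 0 of 71 tested genes of the 8 lists passed limma's adjusted test and 9 had an unadjusted p under 0.05, beside 0.601% and 13.1% of all tested genes.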

How the data were processed

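RNA of mouse trigeminal ganglion was extracted with TRIzol and made into NEBNext Ultra II libraries, per the labels' protocols. The authors deposited 2 tables of FPKM values, fragments scaled by gene length and library depth, a table for each experiment. Per the submitters' processing notes, STAR, HTSeq, DESeq2 and GRCm39 were used, with no versions given. Gene identifiers were matched to GENCODE symbols on GRCm38: 25174 of 26411 rows of the surgery table and 55141 of 55886 of the injection table matched. Of matched genes 99.4% had the GRCm38 start and end in the injection file and 1.99% in the surgery file, so surgery coordinates are printed as deposited. Injection columns are numbered 1 and 3 where the titles have 1 and 2.

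Depth was recovered by finding the read count at which FPKM values up to 20 reads came out whole to within 0.1 reads. This held for 92.6 to 93.0% of values in the surgery table and 98.8 to 99.0% in the injection table. Depth was used for the read numbers given here and for comparing libraries of a group with sampling noise. It was not used in the tests of genes, since the reads depend on the length assumed per gene. Genes with a mean of at least 0.5 FPKM in an experiment were tested with limma 3.58.1 (R 4.3.3) on log2(FPKM + 0.5), with a trend in the prior variance and Benjamini-Hochberg adjustment over all tested genes. Alternatives were another pseudocount (0.1 or 1), no filter or 2 FPKM, rescaling to TPM, median-of-ratios scaling, array weights, the replicate number as a block, and leaving out each library.

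The genes named with every library's value were those that passed the test, those differing by at least 0.5 on the log2 scale, and the highest of each role in the surgery table; up to 4 genes per pathway list were named by smallest p. The members and lists were chosen with earlier results of these data known. Of the other marker lists, red blood cell and skeletal muscle markers gave 0 calls in either experiment by limma's adjusted test, and of the oligodendrocyte and astrocyte markers Aldoc fell after surgery. No 2 libraries of a group differed by as little as sampling noise.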

Additional observations from a re-analysis of the deposited data

How the results depend on the processing

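Numbers of genes passing the test moved with the design more than with the scale. After surgery 3344 genes passed; with the replicate number as a block 2085 did, and without each library 1669 to 2978 (2061 without sham 2 and 1669 without sham 3). The share of higher calls was 46.0%, against 36.7% with TPM and 54.8% with median-of-ratios scaling. The 8 endothelial calls became 4 under the block and 4 to 7 without each library (5 without sham 1, 4 without sham 2, 5 without sham 3), and mural calls 0 to 1, the call being Pdgfrb without pIONT 2. Ly6a and Slc2a1 passed in 14 of 14 alternatives, Mfsd2a in 13, Abcb1a and Ly6c1 in 10, Slco1a4 in 8 and Pecam1 in 6 of 14, and Esm1 in 12 of 13. Under the block the adjusted p was 0.063 for Slco1a4, 0.0542 for Abcb1a, 0.0623 for Ly6c1 and 0.082 for Pecam1, and with no filter 0.0517 for Slco1a4 and 0.0561 for Pecam1. After injection 97 genes passed, against 2 with no filter, 155 at 2 FPKM, 260 under the block and 2 to 13 without each library. Endothelial calls were 1 at 2 FPKM and 1 under the block, each being Ly6c1, and 0 to 0 without each library. The cause was not tested. Deviations of same-numbered libraries correlated at -0.055, -0.20 and 0.068 after surgery, and those of differently numbered libraries at -0.21 to 0.23. After injection the same-numbered value was 0.039. With 2 libraries in a group the deviations mirror each other, so that value cannot decide on pairing. Whether the replicate numbers pair libraries is not settled.

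Small differences changed sign. After surgery Cdh5 was at -0.0027 with TPM and -0.025 with array weights, and Aplnr at 0.00028 with array weights. Without each library Aplnr spanned -0.15 to 0.082, Cdh5 -0.073 to 0.10, Cspg4 -0.068 to 0.25, Des -0.13 to 0.11, Emcn -0.10 to 0.052, Erg -0.11 to 0.021, Higd1b -0.27 to 0.074, Rgs5 -0.22 to 0.080 and Vtn -0.55 to 0.12. After injection Abcc9 spanned -0.29 to 0.14, Acta2 -0.36 to 0.32, Cdh5 -0.12 to 0.26, Cldn5 -0.029 to 0.44, Cspg4 -0.28 to 0.054, Egfl7 -0.080 to 0.35, Eng -0.14 to 0.072, Kcnj8 -0.10 to 0.19, Notch3 -0.23 to 0.033, Pdgfrb -0.06 to 0.13, Tek -0.16 to 0.42 and Vtn -0.14 to 0.40. Over both experiments, the median difference of the endothelial or the mural genes moved in 4 runs of the alternatives. A move was a shift larger than the within-group SD of their average log2 value. Genes at a few reads per library, such as Icam2, Higd1b and Tagln after injection, are limited by depth. Where leaving out a library left 1 in a group, that library was assumed to vary like the others.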
